A study of Capra hircus with 3 samples.

Results

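Small RNAs of skin with resting hair follicles (telogen) were compared with those of skin with growing follicles (anagen) in adult Shanbei White cashmere goats. A tag is a distinct small RNA sequence, and 88004 tags with 10 or more reads in either library were compared, out of 3091357 distinct tags in the 2 libraries and 4043974 in the whole series. These 88004 tags held 90.4% of the clean reads of the anagen library and 90.2% of those of the telogen library. The rule set only this read minimum, but the telogen library is the deeper one, so more tags entered through telogen alone, and these could only be called higher. Each stage was 1 library, made from pooled RNA of pieces of skin from 10 goats of both sexes, cut from the side of the body, and no treatment was given. The third library, from skin with regressing follicles (catagen), is used for side values only. No stage was sequenced more than once, so every difference is one between 2 libraries without a check by replicates, and the goats, the season and the library preparation cannot be told apart from the hair cycle stage.

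MicroRNAs (miRNAs) are cut from hairpin precursors by the enzymes Drosha and Dicer, which leaves a product of usually 21 to 23 nt from an arm of the hairpin. Bases 2 to 8, the seed, pair with messenger RNAs, so a product whose 5′ end is shifted by a base carries another seed, while a product with another 3′ end keeps it. The hair follicle passes through growth, regression and rest, and miRNAs of its epithelium, its dermal papilla and the surrounding dermis take part in these changes. Transfer RNAs end in CCA, so a tag that ends in CCA can be the 3′ piece of one.

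Tags were joined into arms, the products of one side of a hairpin, and the arm of a hairpin with more reads is called its major arm. The tag of an arm with most reads is its leading tag. The leading tags of the arms on which the results turn are given here from 5′ to 3′, with the seed in capitals, because their seeds, their lengths and their first bases recur in what follows. The first lines show muscle miRNAs, then miRNAs of dermis, epithelium and blood that were higher in telogen.
miR-1: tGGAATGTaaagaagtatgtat
miR-206: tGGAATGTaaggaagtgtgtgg
miR-133a: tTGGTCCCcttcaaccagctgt
miR-125b: tCCCTGAGaccctaacttgtga
miR-31: tGCTATGCcaacatattgccatc
miR-223: tGTCAGTTtgtcaaataccccaa
miR-196a: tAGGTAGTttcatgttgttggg
The lines for let-7a and let-7f show the leading tag and, after it, a tag that starts 1 base later and so carries the seed of miR-196a.
let-7a: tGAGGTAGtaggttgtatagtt
let-7a, 1 base late: gAGGTAGTaggttgtatagtt
let-7f: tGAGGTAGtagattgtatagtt
let-7f, 1 base late: gAGGTAGTagattgtatagtt
The leading tags of arms lower in telogen were often short. The first 20 bases of miR-378 are the leading tag of miR-378c.
miR-143 minor arm: gGTGCAGTgctgcatctct
miR-144: tACAGTATagatgatgtact
miR-27b: tTCACAGTggctaagttc
miR-33a: gTGCATTGtagttgcattgca
miR-378: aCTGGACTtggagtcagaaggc
miR-378c: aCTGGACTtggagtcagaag

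The libraries held 15997828 clean reads in anagen and 27016012 in telogen, so a count of 0 allows up to 0.188 reads per 1000000 clean reads (TPM) in anagen and 0.111 in telogen, taken at 3 reads. All levels are in TPM, and all ratios are the log2 of telogen over anagen, so that a positive value is higher in telogen. Parentheses after a ratio hold its exact 95% interval. Intervals cover the counting error of reads only, because each stage was 1 library. PCR copies of a molecule are counted as separate reads, so the error of counting molecules can be wider. A tag or arm was called higher or lower when its ratio passed 2-fold and an exact test of the counts of both libraries passed 0.01, the limits of the study. Reads of under 18 nt, which the authors removed, were 3.38% of the high-quality reads of the anagen library, against 0.566% for telogen and 2.66% for catagen. Reads assigned to miRNA arms made up 40.0% of clean reads in anagen and 31.6% in telogen, and scaling to those reads instead raises every log2 ratio by 0.34.

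Of 466 arms, 268 reached the read minimum and 1 TPM in either library. In telogen 50 arms were called higher, or 18.7% of those tested, and 27 were called lower, or 10.1%. The median ratio of the 268 arms was 0.19, with 158 arms above 0 and 110 below it. Among the arms tested, 28 met the minimum in telogen alone, of which 17 were called higher, and 20 in anagen alone, of which 9 were called lower. In the 220 arms that met it in both libraries 33 were called higher and 18 lower. In the 145 arms with 100 or more reads in both libraries 11 were called higher and 14 lower, so that the excess of higher calls was not found there, and their median ratio was 0.10. The counts of the lists in what follows are to be read against 18.7% and 10.1%, and members that entered through telogen alone are given beside them. In pieces of skin, fewer cells of a type and less RNA per cell cannot be told apart.

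**Figure D1:**
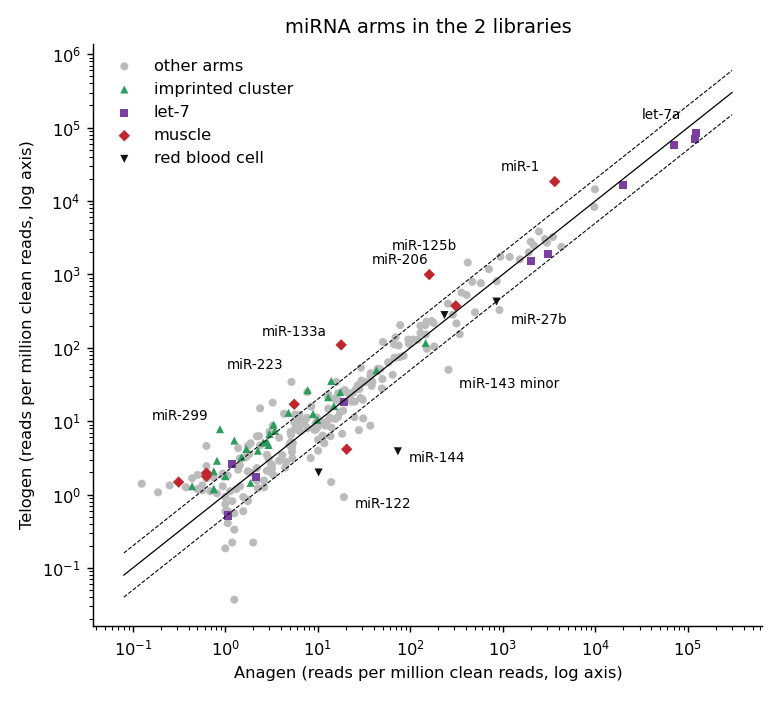
Level of each miRNA arm with reads in both libraries, in TPM on log axes, in anagen (horizontal) and telogen (vertical), with lists of related miRNAs in colour and dashed lines at 2-fold. miR-1, miR-206 and the miR-133 arms lie above the upper line, with miR-1 at 3634 TPM in anagen and 18376 TPM in telogen, while let-7a and let-7f lie under the diagonal at the right end.

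Muscle miRNAs of the miR-1 family, to which miR-206 belongs, and of the miR-133 family were called higher in telogen. Of 9 muscle arms tested, 7 were called higher and 1 lower, with a median ratio of 1.65 against 0.19 for all arms tested, but 3 of the 7, the minor arms of miR-1, miR-133a and miR-378, met the minimum in telogen alone. Of the 6 arms that met it in both libraries 4 were called higher and 1 lower, with a median of 1.97 against 0.15 for all such arms. miR-1, which acts in the differentiation of striated muscle, was read 58142 times in anagen and 496436 times in telogen, or 3634 and 18376 TPM, a ratio of 2.34 (2.33 to 2.35). miR-206, a skeletal muscle miRNA with the same seed, went from 2565 to 26818 reads, a ratio of 2.63 (2.57 to 2.69). The values of miR-133a, made from the same transcripts as miR-1, were 286 and 2957 reads, a ratio of 2.61 (2.44 to 2.79). miR-133b, the partner of miR-206, had 89 and 459 reads, a ratio of 1.61 (1.28 to 1.95). In the catagen library miR-1 was at 70338 TPM, above both other stages, so the order of the 3 libraries was anagen, telogen, catagen. The skeletal muscle markers summed to 3819 TPM in anagen and 19498 in telogen, with 74270 in catagen, all 6 of their tested arms being called higher in telogen. The part of muscle in the other differences between these libraries was not tested. The arm called lower was miR-378c, whose leading tag is a shorter form of that of miR-378, a miRNA of muscle and fat metabolism. miR-378 itself had 4954 and 10081 reads, a ratio of 0.27 (0.22 to 0.32), and miR-378c had 328 and 112 reads, a ratio of -2.31 (-2.63 to -1.99). Counted in tags of 21 nt or longer, the ratio of miR-378c was 0.65.

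The let-7 family, regulators of differentiation that share the seed GAGGTAG and hold the largest share of arm reads, was lower in sum in telogen, at 337589 TPM in anagen and 232240 in telogen, but no tested major arm of it was called. let-7g, among the 10 miRNAs with most reads at each stage in the study, was held here with 1 read in anagen and 0 in telogen. Its main product is therefore outside the values of this list. let-7a had 1971907 reads in anagen and 2271322 in telogen, or 123261 and 84073 TPM, a ratio of -0.55 (-0.55 to -0.55). let-7f stood at 118402 and 70138 TPM, a ratio of -0.76 (-0.76 to -0.75). Its relative let-7b stood at 70746 and 57873 TPM, a ratio of -0.29 (-0.29 to -0.29). Of 10 let-7 arms tested, 9 were below 0 and the minor arm of let-7b, with 19 and 71 reads, was called higher. The median of the family was -0.34, and it was 0.00 where reads were scaled to those assigned to arms, where let-7b and let-7c were slightly above 0.

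Among miRNAs of dermal fibroblasts and papilla, 5 of 17 arms were called higher and 2 lower, with a median of 0.69. Of these 17 arms 3 met the minimum in telogen alone, miR-196b, miR-214 and miR-218, and the first 2 were called. In the 14 others 3 were called higher and 2 lower, with a median of 0.52. miR-125b, which acts in stem cell maintenance in skin, had 6673 reads in anagen and 39159 in telogen, a ratio of 1.80 (1.76 to 1.83). In TPM it went from 417 to 1449, and it had 1229 TPM in catagen. miR-100, from a cluster with a let-7 gene, had 1108 and 3754 reads and lay at the limit, with a ratio of 1.00 (0.91 to 1.10). It was -0.97 in annotated tags alone, and the call was lost with median-of-ratios size factors (0.90) and with scaling to reads of 21 nt or longer (0.94). miR-196a, encoded among the HOX genes, had 52 and 483 reads, a ratio of 2.46 (2.04 to 2.90). miR-196b, another miRNA of the HOX clusters, had 0 reads in anagen and 28 in telogen, which is at least 5.53-fold higher when the floor of 3 reads in the anagen library is used. The most read members were not called. miR-199a, made in mesenchyme, stood at 9892 and 14435 TPM, a ratio of 0.55 (0.54 to 0.55). miR-143, a miRNA of smooth muscle and fibroblasts, stood at 9735 and 8297 TPM, a ratio of -0.23 (-0.24 to -0.22), and miR-21 had a ratio of 0.20. The 2 arms called lower were minor arms, those of miR-143 and miR-125b. The minor arm of miR-143 had 4134 and 1353 reads, a ratio of -2.37 (-2.46 to -2.28), and its leading tag is 19 nt long. The minor arm of miR-125b had 219 and 169 reads, a ratio of -1.13 (-1.43 to -0.83), and its leading tag is 18 nt long.

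In the list of keratinocyte and follicle epithelium miRNAs, 1 of 14 arms was called higher and 1 lower, with a median of 0.11. The study's background cites a rise of miR-31 in anagen and a fall in catagen and telogen, without naming an arm. Only an arm with the seed GCTATGC is held here, and whether that statement covers it was not tested. This arm of miR-31 went the other way, with 123 reads in anagen and 671 in telogen, a ratio of 1.69 (1.41 to 1.98). In TPM it went from 7.69 to 24.8, with 15.3 in catagen. miR-205, an abundant miRNA of the epidermis, stood at 939 and 1745 TPM, a ratio of 0.89 (0.87 to 0.92), which is inside 2-fold. The other members were not called and ranged from -1.38 for the minor arm of miR-205 and -1.17 for miR-200a to 0.55 for miR-96, with miR-182 at 0.15, miR-200b at 0.27 and miR-183 at -0.64. The arm called lower was the major arm of miR-27b, at 14699 and 8830 reads, a ratio of -1.49 (-1.53 to -1.45). Only its tags of 18 to 20 nt are held, and over all tags that share its first 18 nt the ratio was -0.45. The markers of skin epithelium that are held summed to 1121 TPM in anagen and 1879 in telogen, with 1797 in catagen, and miR-203 is not analysed here.

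miRNAs of the large imprinted cluster on the goat chromosome 21, expressed from the maternal chromosome, lay mostly above 0. Of 28 arms tested 13 were called higher and 0 lower, 26 were above 0, and the median was 0.95, but 6 of them met the minimum in telogen alone and 4 of those were called higher. Of the 22 arms that met it in both libraries 9 were called higher and 20 were above 0, with a median of 0.87. In the 9 arms with 100 or more reads in both libraries 2 were called higher and the median was 0.50. The member with most reads, miR-154c, was at 146 and 116 TPM, a ratio of -0.34. miR-379 had 223 and 951 reads, a ratio of 1.34 (1.12 to 1.55). miR-495 had 124 and 714 reads, a ratio of 1.77 (1.49 to 2.06). The counts of miR-299, which met the minimum in telogen alone, were 14 and 210, a ratio of 3.15 (2.37 to 4.05), and those of miR-376e 20 and 147, a ratio of 2.12 (1.44 to 2.87). These arms are rare, and in sum the list went from 317 to 406 TPM. In the neighbourhood of the ARS1.2 annotation that runs from miR-379 to miR-656, 17 of 18 arms were above 0 and 9 were called higher, and in that from miR-493 to miR-136 all 4 arms were above 0 and 3 were called higher. Genes of such a run can share transcripts, so the arms are not independent.

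miRNAs of blood cells did not move together. miR-223, a miRNA of granulocytes, had 83 reads in anagen and 926 in telogen, with 167 in catagen, a ratio of 2.72 (2.40 to 3.07). The minor arm of miR-142, a miRNA of white blood cells, had 38 and 404 reads, a ratio of 2.65 (2.17 to 3.17), while its major arm had 929 and 1701 reads, a ratio of 0.12. Of 8 immune arms 2 were called higher and 0 lower, with a median of 0.19 and with miR-146b at 0.54 and miR-155 at 0.27. Markers of white blood cells summed to 65.7, 76.4 and 113 TPM in anagen, catagen and telogen, without miR-150, which is not analysed here. Of 4 arms of red blood cells 3 were called lower, with a median of -1.68. None of the 3 calls was kept in tags of 21 nt or longer, where the major arm of miR-144 holds no reads and so could not be called. miR-451, made in red cell precursors without Dicer, had 13647 and 11492 reads, or 853 and 425 TPM, a ratio of -1.004 (-1.04 to -0.97) at the limit, and -0.95 in tags of 21 nt or longer. The major arm of miR-144, from the same transcript, had 1173 and 105 reads, a ratio of -4.24 (-4.54 to -3.95), and its held tags are 20 nt or shorter. Over all tags that share its first 18 nt the ratio was -3.86, and it was -3.35 over compared tags of 20 to 24 nt with its seed. The minor arm of miR-144 had 163 and 54 reads, a ratio of -2.35, which was -0.88 in tags of 21 nt or longer. miR-486, the remaining red cell arm, was at 234 and 279 TPM, a ratio of 0.25. In the liver or serum list 1 of 4 arms was called higher and 1 lower, with a median of -0.38. miR-194, a miRNA of gut and liver, was called higher, at 48 and 193 reads and a ratio of 1.25 (0.79 to 1.74). miR-122, a liver miRNA held in part, had 306 reads in anagen and 25 in telogen, with 16 in catagen, a ratio of -4.37 (-5.02 to -3.78), so that of the 3 libraries the anagen library stood apart. All compared tags of 20 to 24 nt with its seed GGAGTGT had 434 and 857 reads, a ratio of 0.23, and 2.92% of those telogen reads were assigned to the arm.

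The remaining lists held few calls. Of 8 arms of clusters that drive proliferation, such as miR-17 and miR-93, 0 were called, with a median of 0.46. Members lay on both sides of 0, with miR-93 at 0.63 and miR-17 at -0.78. The arms below 0 were miR-17, miR-25 and the minor arm of miR-106b. None of them carries the seed AAAGTGC of the major arms of miR-93 and miR-106b. In compared tags of 20 to 24 nt AAAGTGC had a ratio of 0.76 (0.71 to 0.81). There the seed CTGCAGT held for miR-17 was at -0.45, that of miR-25 at 0.75 and that of the miR-106b minor arm at -0.08. In the miR-15 and miR-16 family, which restrains the cell cycle, miR-15a was called. It had 810 and 3239 reads, a ratio of 1.24 (1.13 to 1.36). miR-503 was at -0.80 and miR-497 at 0.18, and the median of the 6 arms was -0.07. These arms include miR-15b and the minor arm of miR-424, which carry other seeds. The seed AGCAGCA of miR-15a, miR-424 and miR-497 went from 716 to 1393 TPM in tags of 20 to 24 nt, a ratio of 0.96. Of those reads 15.8% in anagen and 15.4% in telogen were assigned to arms. The seed AGCAGCG of miR-503 had a ratio of -0.65. The major arms held of miR-16a, miR-16b and miR-195 were under 1 TPM and were not tested. In adipocyte miRNAs 1 of 10 arms was called higher, the minor arm of miR-365 at 253 and 925 reads. Of the endothelial miR-126 only an arm with the seed ATTATTA is held, and it had a ratio of -0.34 (-0.54 to -0.14). The melanocyte miRNAs miR-204 and miR-211 lay at 0.83 and -0.96. Arms held of the miR-30 family, which are minor products, had 0 calls among 4 arms.

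**Figure D2:**
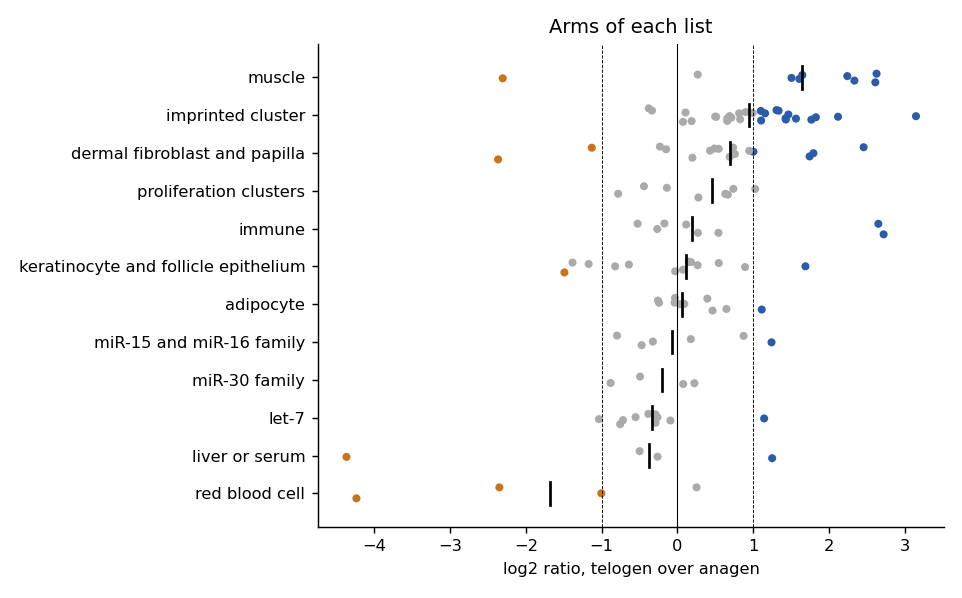
Log2 ratio of telogen over anagen of every tested arm with reads in both libraries, for each list with 4 or more such arms, with a black bar at the median, blue points called higher and orange points called lower. The muscle and imprinted lists have medians of 1.65 and 0.95, or 1.97 and 0.87 in arms that met the minimum in both libraries, the let-7 list of -0.34, and the red blood cell list, with 4 arms, of -1.68.

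Calls in the lower direction were most frequent among arms with short leading tags. The leading tag was picked by the reads of the same 2 libraries, so this grouping is not independent of the calls. Among 34 arms whose leading tag has 18 to 20 nt, 14 were called lower and 1 higher, with a median of -0.86. In the 128 arms led by a tag of 22 nt, 4 were called lower and 27 higher, with a median of 0.28, and in the 51 arms led by a tag of 23 nt or longer 2 were called lower and 13 higher. Of the 27 arms called lower, 9 were still called lower with tags of 21 nt or longer only, 17 with all tags that share their first 18 nt, and 7 under both. Arms held only in shorter tags, such as the major arms of miR-144 and miR-27b, could not be kept at 21 nt or longer. The 7 under both were miR-122, which is held in part, the minor arms of miR-1307 and miR-143, miR-448, miR-33a, miR-1298 and miR-23b. The held major arm of miR-23b carries the seed GGTTCCT, not the seed TCACATT of miR-23a. In compared tags of 20 to 24 nt GGTTCCT had a ratio of -0.45 and TCACATT one of 0.81. The seed CGACCGG of the minor arm of miR-1307 had a ratio of -0.005 in that length range. Of the 50 arms called higher, 47 stayed called with tags of 21 nt or longer, 48 with shared first bases and 45 under both. miR-33a, a regulator of cholesterol export, had 590 and 235 reads, a ratio of -2.08 (-2.31 to -1.86), and -1.31 in tags of 21 nt or longer. miR-1298 had 444 and 204 reads, a ratio of -1.88 and one of -1.87 in tags of 21 nt or longer. The values of miR-331 depended on which tags were counted, at -1.51 (-1.72 to -1.30) for its assigned tags but 0.50 for all that share its first 18 nt.

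Lengths shifted in the library as a whole. Reads of 18 to 20 nt made up 10.60% of clean reads in anagen (Wilson 95% interval 10.59 to 10.62) and 6.29% in telogen (6.28 to 6.30), a ratio of -0.75. Reads of 21 to 23 nt, the miRNA lengths, made up 58.0% and 55.9%, and reads of 24 to 29 nt made up 22.7% and 32.8%, a ratio of 0.53. Reads of 30 to 44 nt went from 8.65% to 4.95%, a ratio of -0.81, and reads of 31 nt or longer from 5.82% to 2.41%. The shares of the shortest and the longest reads were thus lower in telogen, and of these bands that of 24 to 29 nt was higher. At 18 nt the shares were 2.34% and 0.665%, at 33 nt 0.960% and 0.204%, and at 26 nt 3.55% and 5.87%. Catagen lay between the others in the shares of 18-nt and 33-nt reads, at 1.49% and 0.646%. The sources used here do not tell what set the lengths apart, and a difference in size selection was not tested.

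**Figure D3:**
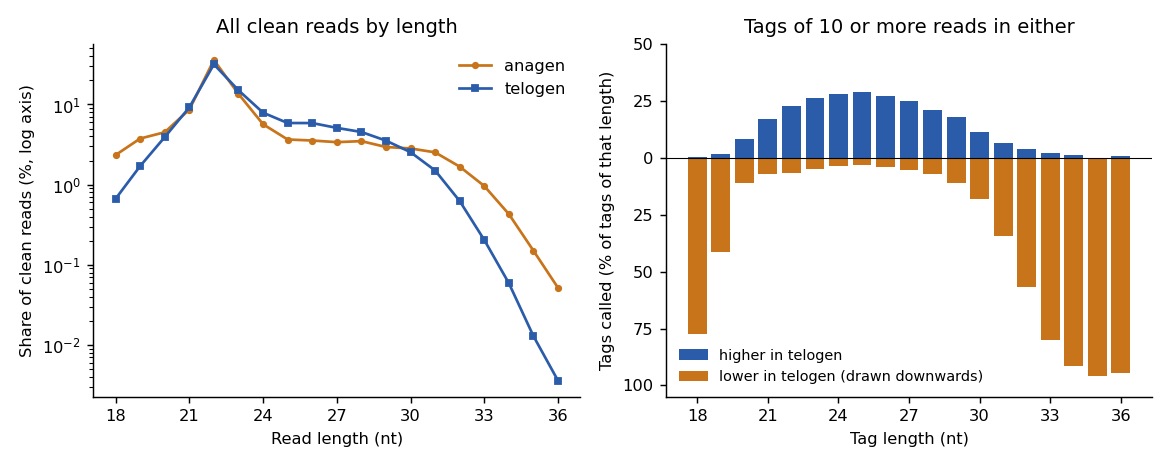
Left, share of clean reads at each length in the anagen and telogen libraries, on a log axis. Right, percent of compared tags at each length that were called higher (upward) or lower (downward) in telogen, where 18-nt tags reach 77.3% called lower and 33-nt tags 79.9%.

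Over all compared tags 17204 were called higher in telogen, or 19.5%, and 12142 were called lower, or 13.8%. At 18 nt 77.3% of tags were called lower and 0.55% higher, at 22 nt 6.74% lower and 22.7% higher, and at 33 nt 79.9% lower and 1.92% higher. The median ratio was 0.26 in the 47109 tags with 10 or more reads in both libraries, of which 9042 were called higher and 5504 lower. The telogen library is the deeper one, and 32690 tags passed the minimum in telogen alone, which could only be called higher, and 8205 in anagen alone, which could only be called lower. No reads in anagen were found for 3432 tags, of which 2386 were called. The tags just inside the minimum, with at most 10 reads in either library, numbered 5527, and those just outside it, with at most 9, numbered 6606.

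Tags were also sorted by how they matched the study's shortened list. Those that carry a miRNA annotation in it numbered 1209 and kept their sum, at 108386 TPM in anagen and 109331 in telogen, a ratio of 0.01. Of them 189, or 15.6%, were called higher and 165, or 13.6%, lower, against 19.5% and 13.8% of all compared tags. The 293 tags that are an exact part of a miRNA sequence but carry no annotation in that list went from 290914 to 206643 TPM, a ratio of -0.49. Of these 20, or 6.83%, were called higher and 91, or 31.1%, lower. Most compared tags, 79750 of them, were neither miRNA nor CCA-ending, and they summed to 408818 and 483198 TPM.

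Tags ending in CCA were higher in sum in telogen, and so they were at 20 to 26 nt. They summed to 24114 TPM in anagen and 36763 in telogen, a ratio of 0.61, and 1125 of 3860, or 29.1%, were called higher and 387, or 10.03%, lower, against 19.5% and 13.8% of all compared tags. The 23-nt tags ending in CCA went from 2385 to 6052 TPM, a ratio of 1.34, with 215 of 456 called higher and 9 lower, where 26.3% of all compared 23-nt tags were called higher and 5.13% lower. Those of 22 nt went from 7247 to 11040 TPM. At the ends of the length range they were lower in telogen, with 904 and 585 TPM at 19 nt and a ratio of -0.34 at 29 nt. All clean reads of 29 nt, in contrast, had a ratio of 0.26.

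The 3′ ends of miRNAs shifted with the lengths. In 139 arms with 100 or more reads in both libraries and held whole, the median share of reads that end before the leading tag was 21.2% in anagen and 15.6% in telogen, with 13.98% in catagen. The share was lower in telogen in 116 arms and higher in 23, and it was lower by more than 10 percentage points in 32 arms and higher by as much in 1. Reads of 20 nt or shorter had a median share of 9.85% of an arm in anagen and 4.45% in telogen, and were lower in 133 of 139 arms. Reads that extend past the leading tag had medians of 7.43% and 10.6%, and were more common in telogen in 100 arms. Arms share the length distribution of their libraries, so these counts are descriptions over arms of the same 2 libraries. Counted in tags of 21 nt or longer only, the share ending early was lower in 60 of 120 arms and higher in 39.

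Among arms with 1000 or more reads in both libraries, miR-206 changed most, from 38.9% of its reads ending before the leading tag in anagen to 14.6% in telogen. It was followed by miR-23a, from a cluster with miR-27a and miR-24, at 52.4% and 28.5%, by miR-130a at 55.8% and 33.4%, by miR-93 at 68.4% and 48.2%, and by miR-22 at 36.1% and 21.3%. In let-7b the 19-nt tag had 98129 reads in anagen and 50291 in telogen, with 8388 in catagen, a ratio of -1.72, while the leading 22-nt tag had 480445 and 746092 reads, a ratio of -0.12. The 18-nt tag of let-7f had 3056 and 184 reads, a ratio of -4.81 (-5.03 to -4.59), while its leading tag had 1680303 and 1679775, a ratio of -0.76. The leading tag of miR-143 had a ratio of 0.02, its 20-nt tag -1.13 and its 18-nt tag -2.99. In miR-26a, a miRNA abundant in many tissues, the 19-nt tag had a ratio of -1.33 and the 22-nt tag one of 0.70. miR-23a had a 19-nt tag with 8174 reads in anagen and 2251 in telogen, a ratio of -2.62 (-2.68 to -2.55), against 1.03 for its leading tag. The steps also ran in arms that were higher overall: in miR-1 the ratios were -0.85 at 18 nt, 2.37 at 22 nt and 3.30 at 23 nt, and those of its 23-nt tag came from 927 and 15405 reads. The 23-nt tag of miR-206 had 156 and 3453 reads, a ratio of 3.71 (3.48 to 3.95).

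**Figure D4:**
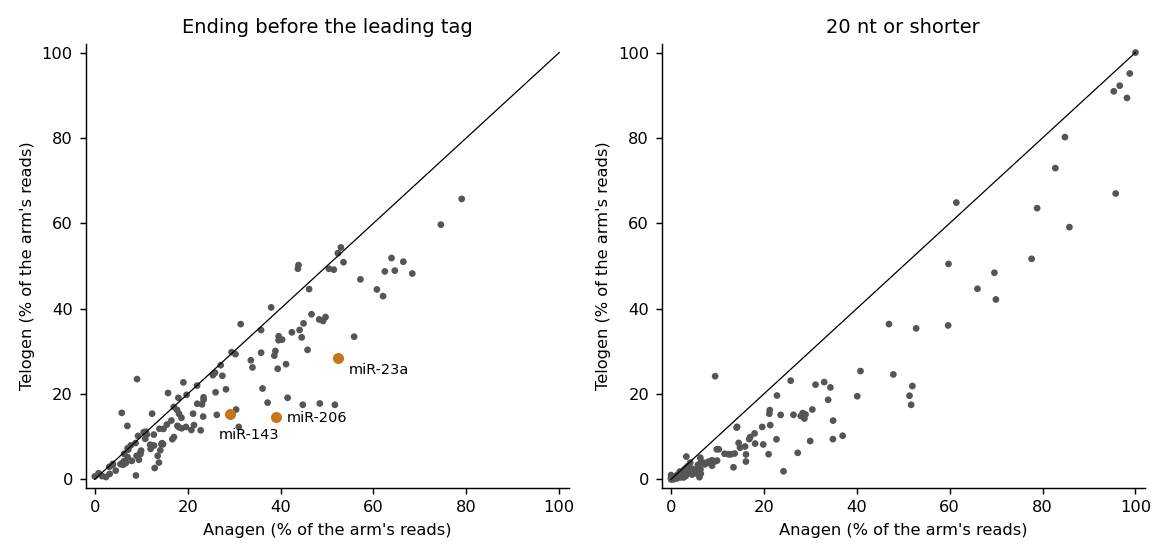
Each of 139 arms, by its percent of reads in anagen (horizontal) and telogen (vertical), for reads ending before the leading tag and for reads of 20 nt or shorter. Most points lie under the diagonal, with medians of 21.2% and 15.6% in the first panel and 9.85% and 4.45% in the other.

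**Figure D5:**
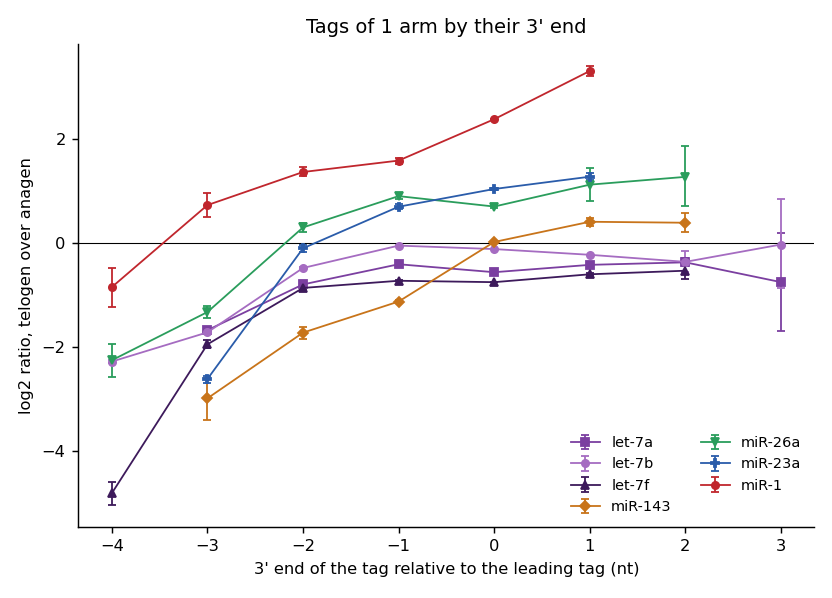
Log2 ratio of telogen over anagen by position of the 3′ end relative to the leading tag, in bases, for let-7a, let-7b, let-7f, miR-143, miR-26a, miR-23a and miR-1, with bars for the exact 95% interval and tags with 10 or more reads in both libraries. The ratio rises with length in miR-1 from -0.85 at 18 nt to 3.30 at 23 nt, and let-7f starts at -4.81.

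Over all assigned tags 209 were called higher and 256 lower, out of 1502, where 19.5% and 13.8% of all compared tags were called. Tags ending 4 bases before the leading tag went from 2187 to 455 TPM, a ratio of -2.26, those ending 3 bases before it had a ratio of -1.71, and those with its own end -0.34. Among 18-nt assigned tags 67 of 89, or 75.3%, were called lower and 0 higher, near the 77.3% and 0.55% of all compared 18-nt tags. Tags of one arm could be called in opposing directions, as in 19 of the 222 arms with at least 2 compared tags.

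The 5′ ends varied less. The median share of reads that start elsewhere than the leading tag was 1.68% in anagen and 1.02% in telogen, and it was lower in 97 arms, higher in 31 and equal in 11. The minor arm of miR-2904 changed most, from 79.7% to 31.7%, with 30.6% in catagen. miR-140, a cartilage miRNA, went from 34.5% to 43.9%, miR-2284x from 51.0% to 44.7%, miR-2887 from 77.4% to 73.3% and miR-101 from 44.1% to 48.1%. Reads that start 1 base late were rarer in telogen in 50 of 57 arms with 1000 or more reads in both libraries and more common in 6. In the 40 of them with under 1% of such reads in anagen, the median share was 0.138% in anagen and 0.0204% in telogen, with 0.0641% in catagen. In miR-143 it went from 0.104% to 0.00178%, or from 162 reads to 4.

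Late starts give let-7 the seed AGGTAGT. In compared tags of 20 to 24 nt, this seed came from let-7 tags starting 1 base late, 14 of them, with 8111 reads in anagen and 726 in telogen, a ratio of -4.24 (-4.35 to -4.13), and each of the 14 was called lower. The tag of let-7a had 2132 and 127 reads, and that of let-7f had 3240 and 208. miR-196a, the arm known for this seed, had 4 tags with 48 and 472 reads, a ratio of 2.54, in the opposite direction, and miR-196b had 0 and 16. A further 43 tags of no arm held 2239 and 1025 reads. Reads with the seed of miR-196 in anagen were thus mostly let-7 reads, at 507 TPM of late let-7 tags, and in telogen these stood at 26.9 TPM beside 17.5 TPM of miR-196a.

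Summed by seed, 160 families of 20-nt to 24-nt tags had a median ratio of 0.40, with 36 past 2-fold higher and 5 past 2-fold lower. The seed GAGGTAG of let-7 went from 389471 to 276707 TPM, a ratio of -0.49. The seed GGAATGT of miR-1 and miR-206 went from 4084 to 21239 TPM, a ratio of 2.38, and that of miR-125b, CCCTGAG, from 682 to 1916 TPM, a ratio of 1.49. The seed TCACAGT of miR-27b had a ratio of 0.80 (0.76 to 0.85) in this length range, where none of its tags were assigned to the arm, against -1.49 for the 18-nt to 20-nt tags of the arm itself.

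In 36 hairpins each arm had at least 20 reads in both libraries, and the median change of the log2 ratio of major to minor arm was 0.00. It passed 1 in size in 9 hairpins. Intervals of these changes are 95% normal intervals from the counts, not exact ones. In miR-125b it rose by 2.93 (2.63 to 3.22), in miR-1307 by 2.65 (2.14 to 3.15) and in miR-143 by 2.14 (2.05 to 2.23). In miR-142 it fell by 2.54, with 929 and 38 reads in anagen but 1701 and 404 in telogen. Some of these changes rest on short tags. In tags of 21 nt or longer the change was 1.43 in miR-143, whose minor arm then had 193 and 123 reads, and -1.81 in miR-142, while it was 2.72 in miR-1307. In miR-125b 98.2% of the minor arm's anagen reads had 20 nt or fewer, which leaves too few for a value. The arm with more reads differed between the libraries in miR-33a, with 590 and 207 reads in anagen but 235 and 401 in telogen, and in miR-505, with 37 and 49 reads in anagen but 169 and 55 in telogen.

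Of the 44 candidate miRNAs predicted by the study whose sequences are held, 18 reached the read minimum, with a median ratio of 0.29. Of these 18, 2 were called higher and 0 lower, where 19.5% and 13.8% of all compared tags were called. Sequences of 3 of them are shown because of their last bases and near neighbours.
novel_mir_1: gtttcccggcccatgcacca
novel_mir_20: agaggtaaaaaattgatttgact
novel_mir_3: tgccaagcccacgttcaaagg
novel_mir_1 had 202 and 786 reads, a ratio of 1.20 (0.98 to 1.43), and ends in CCA, as 3 of the 18 did. A tag that differs from it by a single base, C12A counted from 1 at the 5′ end, had 8225 and 27329 reads. Of the 18, 4 had such a neighbour with at least 10 times their reads. novel_mir_20 had 210 and 457 reads, a ratio of 0.37 (0.13 to 0.61), and was not called. novel_mir_3 had 18 and 63 reads, a ratio of 1.05 (0.28 to 1.90).

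Single tags assigned to no held miRNA differed widely. A 26-nt tag had 16078 reads in anagen and 119848 in telogen, with 30387 in catagen, a ratio of 2.14. A 31-nt tag had 1616 and 26174 reads, a ratio of 3.26 (3.19 to 3.34), and a 22-nt tag 196 and 3986 reads, a ratio of 3.59 (3.38 to 3.80). In the other direction an 18-nt tag had 2339 and 100 reads, a ratio of -5.30, and a 34-nt tag 3834 and 336, a ratio of -4.27. The unassigned tag with most reads in anagen, of 22 nt, had 152896 and 169137 reads, with 135427 in catagen, a ratio of -0.61. At each stage its count lay a little under the one the study gives for let-7g, whose main product is not held here. It may thus be a miRNA tag. A 25-nt tag ending in CCA had 181 and 2574 reads, a ratio of 3.07. What these tags derive from was not tested.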

How the data were processed

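Skin small RNA of 3 hair cycle stages was sequenced on the Illumina/Solexa platform, 1 library per stage. The authors removed low-quality reads, adapter contaminants and reads under 18 nt, and deposited the read count of each distinct clean tag, and these counts were used unchanged. Mapping was not used here. Names and sequences of miRNAs came from the study's supplementary lists, held here in shortened form, so arms outside them are not analysed here. Listed tags of a miRNA were joined into a sequence where they shared at least 14 bases, and sequences sharing at least 16 bases were 1 arm. Other tags entered an arm only as an exact part of its sequence. The 2877 compared tags that only shared the first 18 nt of an assigned tag stayed outside the arms. An arm with at least 10% of its reads in a tag past its held end was marked as held in part. The 5p and 3p names were not given by the lists, so arms are major and minor. The 15 tags shared by several miRNAs were left out of arms.

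Members were tags with 10 or more reads in either library, and arms also needed 1 TPM. Calls took a 2-fold ratio and a two-sided exact Audic-Claverie test at 0.01. Genes closer than 10000 bases on the ARS1.2 annotation formed neighbourhoods, for which 222 of 264 miRNA genes matched. Named arms were the largest changes each way, those with most reads, the largest end shifts and the list members with most reads. The members and lists were chosen with earlier results of these data known. Python 3.11.15, scipy 1.17.1, pandas 2.3.3, R 4.3.3 and edgeR 4.0.16 were used, and scripts were tested on simulated data. Fragments of messenger RNAs were not analysed.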

Additional observations from a re-analysis of the deposited data

How the results depend on the processing

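Scaling to reads assigned to arms gave 27339 tags and 80 arms called higher, with 18 arms called lower. With 100 or more reads the calls were 6338 tags higher, 2098 tags lower and 32 arms higher. The 2-fold limit alone gave 31058 tags higher. Where the interval had to pass 2-fold, 7135 tags were higher, 7787 lower, 20 arms higher and 16 lower. Tags of 21 nt or longer left 9 arms lower, where arms held only in shorter tags could not be called. All tags sharing the first 18 nt left 17, an alternative chosen after seeing the data. So were the minimum in both libraries, with 33 arms higher and 18 lower, and 100 or more reads in both, with 11 higher and 14 lower. edgeR with an assumed coefficient of variation of 0.4, which stands for replicates that do not exist, called 1 arm higher and 4 lower, with 28 arms at an unadjusted p under 0.05. Ratios turned in miR-378c (0.65 in tags of 21 nt or longer), miR-331 (0.45 with 1 or 2 further 3′ bases, 0.50 with the first 18 nt) and miR-100 (-0.97 in annotated tags only); the cause was not tested. In distinct tags the ratios of length were -0.60 at 18 to 20 nt, 0.16 at 21 to 23, 0.26 at 24 to 29 and -0.72 at 30 to 44, and over compared tags -0.76, -0.064, 0.57 and -0.80. The share of arms with fewer early 3′ ends was 83.5%, and 91.2% with 1000 reads or 50% in tags of 21 nt or longer; for 5′ ends 69.8%, 86.0% and 60%. Hairpins past 2-fold numbered 5 with 100 reads, and candidates called 1 when scaled to reads of 21 nt or longer. No paired analysis was possible because each stage has 1 library.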

Other observations

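Other neighbourhoods of miRNA genes, on the ARS1.2 annotation, were smaller. On chromosome X the run from miR-502a to miR-502b had 5 of 6 arms above 0, with 1 called higher and a median of 0.58. On chromosome 8 the run of miR-23b, miR-27b and miR-24 had 0 of 4 arms above 0, with 2 called lower and a median of -0.98. The calls were the held major arm of miR-23b, with the seed GGTTCCT, and the major arm of miR-27b, which is held only in tags of 18 to 20 nt. The arm held of miR-24 carries the seed GTGCCTA. In compared tags of 20 to 24 nt GGTTCCT had a ratio of -0.45 and GTGCCTA one of 0.15. The seed TCACATT of miR-23a had a ratio of 0.81 there. Over all tags sharing its first 18 nt miR-27b had a ratio of -0.45, and its seed had one of 0.80 in tags of 20 to 24 nt. In leading tags of 20 arms, the median share of reads with 1 substituted base was 1.42% in anagen, 0.764% in catagen and 1.19% in telogen.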
